A study of Mus musculus with 12 samples.

Results

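Mal, Opalin, Mog, Ermn, Omg, Aspa, Cldn11, Mobp, Tspan2 and Plekhb1 were followed through a mouse RNA-seq study of the small GTPases RalA and RalB in oligodendrocytes. They are 10 of the 35675 genes summed from the deposited transcripts, they were chosen by name as genes of the myelin membrane and the cell that makes it, with earlier results of these data known, and all 10 passed the filter on low counts. RNA came from spinal cord cells of mice at postnatal day 10, sorted for a red reporter and for large forward scatter, with 1 library per mouse. There were 4 RalA cKO mice (CnpCre with RalAflox/flox), 4 RalAB cKO mice (CnpCre with RalAflox/flox and RalBflox/flox) and 4 control mice. Every mouse, control mice included, carried CnpCre, a Cre recombinase driven from the Cnp gene of myelinating glia, and the Rosa26-StopFlox-TdTomato reporter that Cre switches on. The reporter marks Cre activity at its own locus and does not show that a Ral allele was recombined in the same cell.

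Oligodendrocytes wrap axons of the central nervous system in many layers of plasma membrane, which are pressed together into compact myelin. The inner faces of the layers meet through cytoplasmic basic proteins, the outer faces through adhesion proteins and lipids, and tight junction strands seal the sheath. Ral proteins bind the exocyst, a complex that tethers vesicles on their way to the plasma membrane. The 10 genes differ in their place in this structure. Mog encodes an immunoglobulin-family protein of the outermost myelin surface, Opalin a transmembrane sialoglycoprotein of oligodendrocytes, Omg a glycoprotein held by a lipid anchor that is a ligand of the Nogo receptor, and Cldn11 the claudin of myelin tight junctions. Mal encodes a proteolipid with a MARVEL domain that associates with glycosphingolipid-rich membrane, and Tspan2 a tetraspanin. Mobp encodes a small basic protein of the cytoplasmic face, Ermn an actin-binding protein, Plekhb1 a protein with a membrane-binding pleckstrin homology domain, and Aspa aspartoacylase, the enzyme that splits N-acetylaspartate into acetate and aspartate. Aspa, Ermn, Mobp and the lipid-anchored Omg thus do not encode transmembrane proteins.

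The 250 bases before the RefSeq start of 6 of the genes are shown, because these genes differ in how their RNA changed: Mal and Ermn were among the genes that fell most in RalAB cKO, Mog and Mobp fell less, Opalin rose in RalA cKO and fell in RalAB cKO, and Cldn11 passed no test. The sequences are RefSeq's for GRCm38.p6, 5′ to 3′ on the strand of the gene, and capitals mark the letters of a MYRF motif (CTGGCAC or CTGGTAC) or a SOX motif (ACAAAG or ACAATG) on either strand.
Mal chr2:127656696-127656945, minus strand: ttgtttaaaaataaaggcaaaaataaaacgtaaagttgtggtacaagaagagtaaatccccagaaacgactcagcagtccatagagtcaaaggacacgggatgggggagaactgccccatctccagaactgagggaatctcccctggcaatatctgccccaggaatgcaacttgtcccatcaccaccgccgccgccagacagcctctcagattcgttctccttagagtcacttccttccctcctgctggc
Ermn chr2:58052865-58053114, minus strand: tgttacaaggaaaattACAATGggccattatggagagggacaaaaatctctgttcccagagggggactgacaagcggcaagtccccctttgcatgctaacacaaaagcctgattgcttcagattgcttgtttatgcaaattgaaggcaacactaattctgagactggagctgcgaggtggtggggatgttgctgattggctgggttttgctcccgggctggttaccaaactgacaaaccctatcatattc
Opalin chr19:41077114-41077363, minus strand: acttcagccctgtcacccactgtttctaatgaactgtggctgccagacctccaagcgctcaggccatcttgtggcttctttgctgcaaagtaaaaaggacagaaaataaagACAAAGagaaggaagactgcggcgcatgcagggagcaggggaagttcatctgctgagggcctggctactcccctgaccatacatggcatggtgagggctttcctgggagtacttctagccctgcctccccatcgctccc
Mog chr17:37023399-37023648, minus strand: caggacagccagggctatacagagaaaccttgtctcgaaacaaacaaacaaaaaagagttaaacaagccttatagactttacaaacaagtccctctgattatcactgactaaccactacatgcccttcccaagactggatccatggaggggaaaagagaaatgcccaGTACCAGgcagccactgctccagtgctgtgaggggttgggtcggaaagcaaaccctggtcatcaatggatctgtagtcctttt
Mobp chr9:120149492-120149741, plus strand: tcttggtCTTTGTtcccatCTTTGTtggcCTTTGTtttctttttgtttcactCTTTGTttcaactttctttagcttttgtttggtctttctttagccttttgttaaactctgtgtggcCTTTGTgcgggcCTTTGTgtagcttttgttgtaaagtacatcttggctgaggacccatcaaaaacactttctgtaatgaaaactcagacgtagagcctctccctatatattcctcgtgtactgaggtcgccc
Cldn11 chr3:31149670-31149919, plus strand: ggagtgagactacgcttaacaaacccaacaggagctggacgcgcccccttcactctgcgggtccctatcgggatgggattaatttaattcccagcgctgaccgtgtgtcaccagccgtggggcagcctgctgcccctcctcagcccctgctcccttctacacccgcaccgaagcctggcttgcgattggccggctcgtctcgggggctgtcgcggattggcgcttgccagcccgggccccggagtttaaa

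RefSeq promoters were matched by symbol for 9 of the 10 genes, all but Omg, with 11 starts in all. MYRF and SOX proteins are transcription factors of oligodendrocytes. The MYRF letters occurred in 5.93% of the same windows of 32851 promoters, and among the 11 windows of these 9 genes only that of Mog held them, on the opposite strand 83 bases before the start. The SOX letters occurred in 25.2% of all windows. The Opalin window held them 139 bases and the Ermn window 234 bases before the start. A second annotated start of Tspan2 and of Plekhb1 had 1 SOX match each, and the first starts of both had none. The Mobp window held 6 SOX matches, all on the opposite strand, between 120 and 243 bases before the start; 0.00304% of promoters, the Mobp window itself, held 6 or more. The Mal, Cldn11 and Aspa windows held neither motif. A match is a description of letters and not a bound site.

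Libraries held 10.9 to 15.4 M estimated counts. Cnp, Mag and Sox10, markers of oligodendrocytes used to check the label, were detected in every library. Genotypes were used as labelled: Rala differed from control by -0.31 ± 0.15 in the RalA cKO libraries (log2 ± standard error), by -0.39 ± 0.15 in those of RalAB cKO, and Ralb by -0.28 ± 0.15 in those of RalAB cKO. With edgeR's quasi-likelihood test their adjusted p-values were 0.236, 0.0832 and 0.216, so none passed. Ralb, which is not floxed in RalA cKO, differed there by -0.32 ± 0.15 (adjusted p = 0.229). Control mouse 1 and RalAB cKO mouse 1 stood apart from their groups, so member results without both are given below. The share of mitochondrial counts was 2.04% to 2.63% in RalA cKO, 1.60% to 2.09% in RalAB cKO and 1.45% to 2.14% in control, and its part in the higher levels of RalA cKO was not tested. Microglial markers moved with genotype: all 20 had counts in every library, and their summed level was 226 to 382 CPM in RalA cKO, 1531 to 2799 CPM in RalAB cKO and 346 to 770 CPM in control. CPM is counts per 1 M counts after TMM scaling of library sizes.

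The 10 genes spanned a wide range of abundance, with Mobp and Cldn11 highest and Aspa, Ermn and Omg lowest in each genotype. Levels of different genes were compared as TPM, transcripts per 1 M transcripts, which divides by transcript length. Mobp averaged 6401 ± 445 TPM in RalA cKO, 4765 ± 419 TPM in RalAB cKO and 7469 ± 839 TPM in control (SD, n = 4 each). Cldn11 averaged 5363 ± 569.7, 4680.02 ± 353 and 4882 ± 462 TPM in the same 3 groups. In control the order below these was Mog, Plekhb1, Mal, Tspan2, Opalin, Omg, Ermn and Aspa, from 2540.3 ± 306 TPM for Mog to 83.6 ± 18.1 TPM for Aspa. Plekhb1 and Mal, Mal and Tspan2, Opalin and Omg, Omg and Ermn, and Ermn and Aspa had overlapping ranges in control, so those neighbours were not separated. In RalAB cKO Mobp overlapped with Cldn11, Plekhb1 stood above Mog with overlapping ranges, and Tspan2 stood above Mal, also with overlap, as did Omg above Aspa and Aspa above Ermn. In RalA cKO Mobp and Cldn11 overlapped, as did Omg with Aspa and Aspa with Ermn. The ratio of Cldn11 to Mobp in TPM was 0.715 to 1.01 in RalA cKO mice, 0.920 to 1.02 in RalAB cKO mice and 0.624 to 0.717 in control mice. Together the 10 genes took 2.08% to 2.28% of counts in RalA cKO, 1.46% to 1.69% in RalAB cKO and 1.99% to 2.47% in control.

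**Figure D1:**
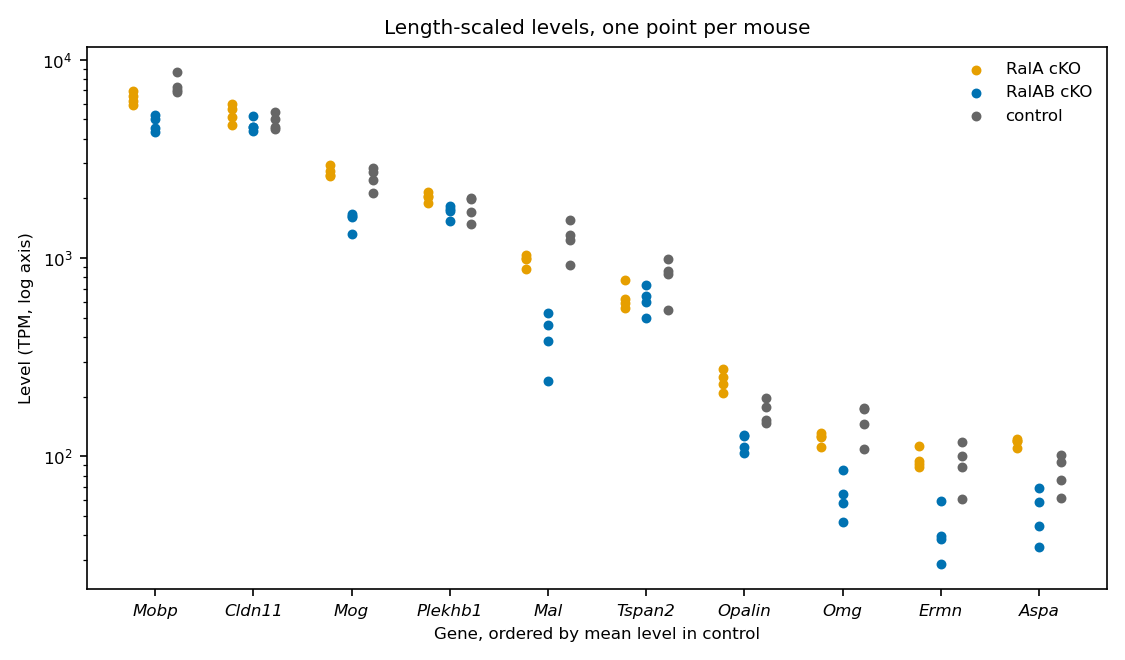
Length-scaled level (TPM, log axis) of each gene, with 1 point per mouse and genotypes side by side in the order RalA cKO, RalAB cKO and control. Mobp and Cldn11 lie highest in each genotype, and the RalAB cKO points of Mal lie at 239.9 to 530.2 TPM, below all points of the other groups.

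In RalAB cKO 6 of the 10 genes fell and none rose against control: Mal, Omg, Ermn, Mog, Mobp and Opalin. Of the 13456 genes tested 18.4% passed in either direction, 9.39% higher and 9.02% lower, with edgeR's quasi-likelihood test and Benjamini-Hochberg adjustment at 0.05; because the 10 genes were chosen with earlier results known, their count is a description. The median log2 fold change of the 10 genes was -0.53, against -0.0090 for all genes tested. In RalA cKO 2 of the 10 rose, Opalin and Aspa, and none fell, where 2.78% of all genes passed, 1.71% higher and 1.07% lower. That background depended on the setting: 374 genes were called here, 85 without RalA cKO mouse 4 and 1736 with limma-voom quality weights, and the 230 higher and 144 lower calls became 126 and 390 on log2(TPM + 1). At an unadjusted p under 0.05, 5 of the 10 were higher and 0 lower in RalA cKO (11.4% and 11.3% of all genes). With the DESeq2 test Plekhb1 joined the higher genes and none of the 10 was lower, where 613 of all genes were higher and 470 lower. In the main fit the RalA cKO median was 0.28 for the 10 genes and -0.022 for all genes. Between the mutants 7 of the 10 were lower in RalAB cKO than in RalA cKO, the 6 above and Aspa, against 11.5% of all genes in either direction, 7.03% higher and 4.5% lower. The median of that comparison was -0.97 for the 10 genes and -0.026 for all. RalAB cKO did not overlap with control for the 6 genes that fell (19.2% of all genes did not overlap) and did not overlap with RalA cKO for the 7 genes called between the mutants (17.3%). Both comparisons with control use the same 4 control mice. In these bulk samples fewer cells of a type and less RNA per cell cannot be told apart.

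**Figure D2:**
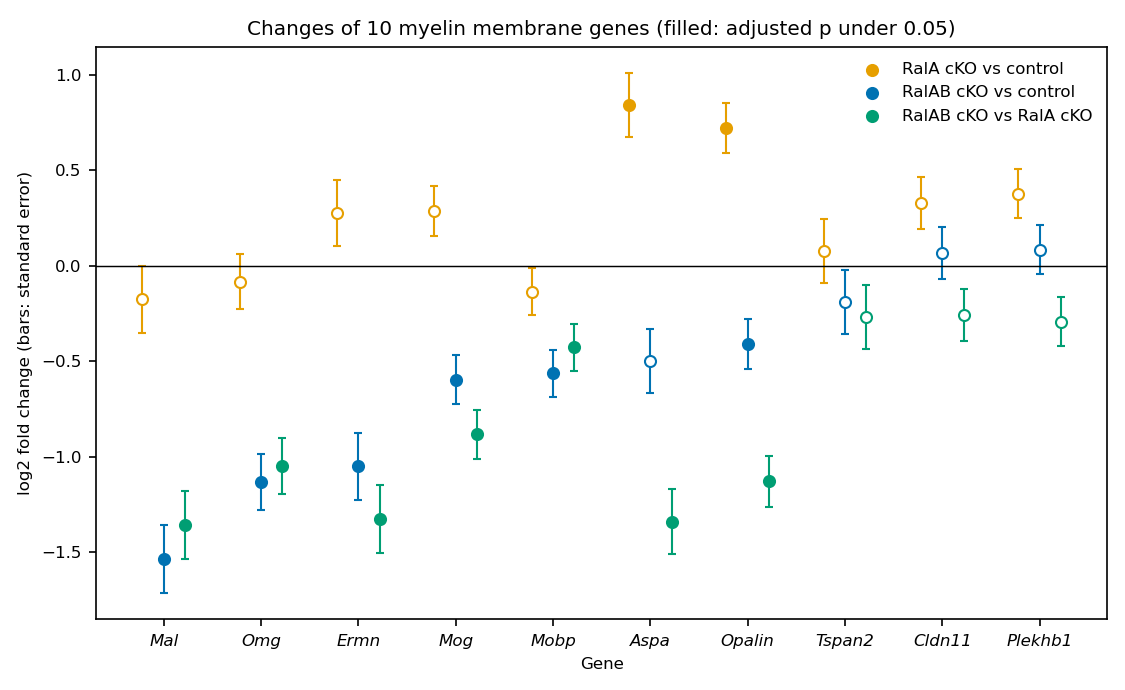
Log2 fold change of each gene in the 3 comparisons, with bars for the standard error and filled points for an adjusted p under 0.05; genes are ordered by their change in RalAB cKO against control. Mal, Omg and Ermn lie lowest in RalAB cKO against control, and Aspa and Opalin are the filled points above 0 in RalA cKO against control.

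Among the surface proteins, Mog was abundant in every mouse. It was 2772, 3218, 2540.5 and 3124 CPM in RalA cKO mice 1 to 4, 1482, 1657, 1745 and 1435 CPM in RalAB cKO mice and 2483, 2478, 1859 and 2730.1 CPM in control mice. All RalAB cKO mice lay below all others, and the RalA cKO and control ranges overlapped. Mog fell by 0.60 ± 0.13 in RalAB cKO (adjusted p = 0.00473), which is 33.8% lower. In RalA cKO its difference of 0.29 ± 0.13 did not pass (adjusted p = 0.199, 95% interval 0.034 to 0.54).

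Opalin was the gene that separated all 3 genotypes. Its levels were 282, 318, 235 and 357 CPM in RalA cKO mice, 132, 148, 137 and 129 CPM in RalAB cKO mice and 168, 185, 153 and 218 CPM in control mice. No ranges overlapped: RalA cKO was highest, control intermediate and RalAB cKO lowest. Opalin rose by 0.72 ± 0.13 in RalA cKO (adjusted p = 0.00948) and fell by 0.41 ± 0.13 in RalAB cKO (adjusted p = 0.0406). Between the mutants it was lower in RalAB cKO by -1.13 ± 0.13 (adjusted p = 3.40e-05). The lower level against control no longer passed without RalAB cKO mice 1, 2, 3 or 4 in turn, without RalA cKO mouse 2 or without control mouse 2 or 4 (-0.30 to -0.45), nor with transcript length offsets (-0.41, adjusted p = 0.0539).

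Omg, the Nogo receptor ligand, was 195, 196, 173 and 179 CPM in RalA cKO mice, 107, 83.2, 98.1 and 70.96 CPM in RalAB cKO mice and 152, 224, 177 and 235 CPM in control mice. RalAB cKO mice did not overlap with either group, while RalA cKO lay within the control range. Omg fell by 1.13 ± 0.15 in RalAB cKO (adjusted p = 9.66e-05), 54.4% below control, and differed by -0.083 ± 0.14 in RalA cKO (adjusted p = 0.760). The gene lies at chr11:79500982-79504084 (GRCm38, minus strand) inside Nf1, at chr11:79339693-79581612 on the plus strand. Nf1 was present at 51.6 to 128 counts per 1 M, here without TMM scaling. No source used here gives the strand setting of the counting, so reads of Omg and of overlapping Nf1 sequence may not be fully separated. Nf1 itself differed by 0.22 ± 0.17 in RalAB cKO and did not pass (adjusted p = 0.413).

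Cldn11 was among the most abundant of the 10 and passed no test. It was 5499, 6836, 5605 and 7559.8 CPM in RalA cKO mice, 4524, 5913, 5569 and 5324 CPM in RalAB cKO mice and 5067, 5118, 4329.8 and 5827 CPM in control mice, with overlap between all groups. The difference was 0.33 ± 0.14 in RalA cKO (95% interval 0.059 to 0.59), 0.068 ± 0.14 in RalAB cKO (-0.20 to 0.34) and -0.26 ± 0.14 between the mutants (-0.52 to 0.0094). The RalAB cKO interval of Cldn11 and that of Mal, -1.89 to -1.18, did not overlap, although the difference between the genes was not tested.

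Mal fell furthest of the 10 in RalAB cKO. It was 1886, 2015, 1709 and 1768 CPM in RalA cKO mice, 841, 836, 734 and 467 CPM in RalAB cKO mice and 1644, 2120.2, 1889 and 2681 CPM in control mice. The highest RalAB cKO mouse was below the lowest mouse of both other groups. Mal fell by 1.53 ± 0.18 in RalAB cKO (adjusted p = 4.24e-05), 65.5% below control, and was lower than in RalA cKO by -1.36 ± 0.18 (adjusted p = 8.44e-05). RalA cKO differed from control by -0.18 ± 0.18 (adjusted p = 0.564, interval -0.52 to 0.17).

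Tspan2, the tetraspanin, did not pass in any comparison. It was 1118, 1520.2, 1665 and 1648 CPM in RalA cKO mice, 1345, 1253, 1287 and 1058 CPM in RalAB cKO mice and 974, 1566, 1330.05 and 1765 CPM in control mice, and the lowest and the highest mouse were both control mice. Its difference was 0.079 ± 0.17 in RalA cKO (interval -0.25 to 0.41) and -0.19 ± 0.17 in RalAB cKO (interval -0.52 to 0.14). The small RalA cKO difference changed sign with TPM, with library totals alone and with transcript length offsets.

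**Figure D3:**
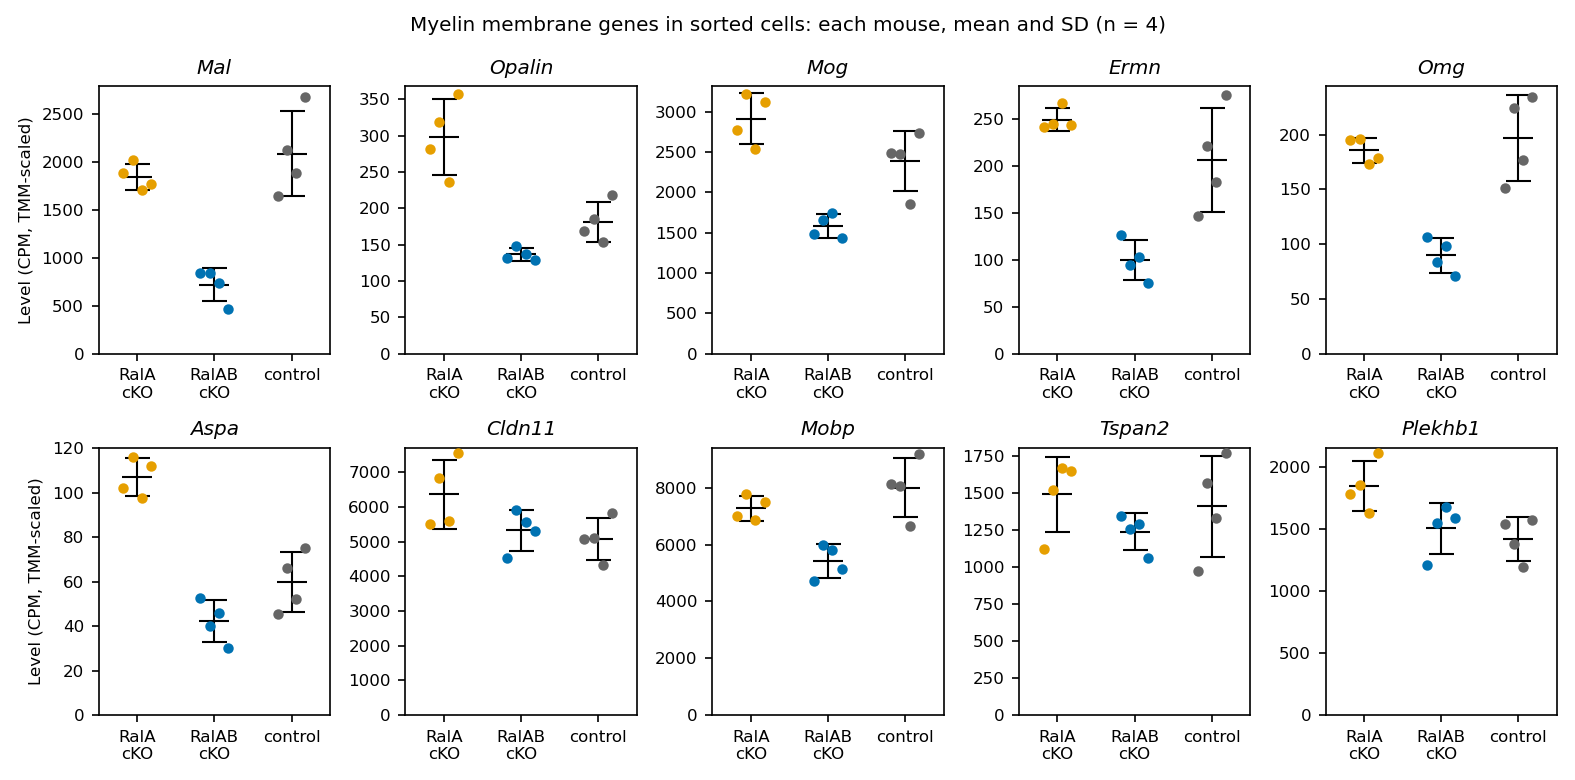
Level (CPM after TMM scaling) of each gene in every mouse, with the mean and SD of 4 mice per genotype, in the order RalA cKO, RalAB cKO and control. RalAB cKO points lie below all control points for Mal, Omg, Ermn, Mog, Mobp and Opalin, and overlap with control for Aspa, Cldn11, Tspan2 and Plekhb1.

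Mobp, the basic protein of the cytoplasmic face, had the highest mean level of the 10. It was 7004, 7798, 6857 and 7489 CPM in RalA cKO mice, 4722, 5993, 5813 and 5157 CPM in RalAB cKO mice and 8126, 8058, 6652 and 9201 CPM in control mice, with RalAB cKO below both other groups in every mouse. Mobp fell by 0.56 ± 0.12 in RalAB cKO (adjusted p = 0.00489). It was lower than in RalA cKO by -0.43 ± 0.12 (adjusted p = 0.0325), a call that ended without any 1 of RalA cKO mice 1, 2 or 4, RalAB cKO mice 1, 3 or 4, or control mouse 2 (-0.37 to -0.46). RalA cKO differed from control by -0.14 ± 0.12 (adjusted p = 0.522).

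Ermn, which binds actin in oligodendrocyte processes, was 241, 245, 268 and 244 CPM in RalA cKO mice, 127, 93.99, 103 and 74.8 CPM in RalAB cKO mice and 147, 221, 182 and 275 CPM in control mice. RalAB cKO mice were lowest without overlap, and RalA cKO mice lay within the control range. Ermn fell by 1.05 ± 0.18 in RalAB cKO (adjusted p = 0.000802), 51.7% below control, and was lower than in RalA cKO by -1.32 ± 0.18 (adjusted p = 0.000110). Its RalA cKO difference was 0.27 ± 0.17 (adjusted p = 0.352).

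Plekhb1 was 1781, 1857, 1631 and 2112 CPM in RalA cKO mice, 1211, 1547, 1676 and 1592 CPM in RalAB cKO mice and 1539, 1379, 1192 and 1573 CPM in control mice. On CPM every RalA cKO mouse lay above every control mouse, yet the difference of 0.38 ± 0.13 did not pass (adjusted p = 0.106). On TPM the groups overlapped, at 1885 to 2155 in RalA cKO and 1482 to 2016 in control. Plekhb1 passed with the DESeq2 test, with quality weights and without control mouse 1 and RalAB cKO mouse 1 together. In these settings 1083, 1736 and 1693 of all genes were called, against 374 in the main fit. With Opalin and Aspa, Plekhb1 made 3 of 10 genes whose RalA cKO and control CPM values did not overlap, where 11.4% of all genes did not overlap. RalAB cKO differed by 0.084 ± 0.13 (interval -0.17 to 0.34).

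Aspa had the lowest TPM of the 10 in control and, of the 10, the largest log2 fold change in RalA cKO on the scale of counts; on log2(TPM + 1) Aspa and Opalin both differed by 0.52. It was 102, 116, 97.8 and 112 CPM in RalA cKO mice, 52.8, 40.1, 45.8 and 30.3 CPM in RalAB cKO mice and 45.3, 66.3, 52.3 and 75.3 CPM in control mice. RalA cKO stood above both other groups without overlap, and RalAB cKO overlapped with control. Aspa rose by 0.84 ± 0.17 in RalA cKO (adjusted p = 0.0158) and was lower in RalAB cKO than in RalA cKO by -1.34 ± 0.17 (adjusted p = 6.67e-05). The RalA cKO call ended with transcript length offsets (0.68, adjusted p = 0.0511), without RalA cKO mouse 4 (0.82, adjusted p = 0.0603) or control mouse 3 (0.77, adjusted p = 0.0603), and on log2(TPM + 1), where limma gave 0.52 (adjusted p = 0.109). RalAB cKO was -0.50 ± 0.17 from control and just missed the threshold (adjusted p = 0.0505), while 13 of 27 alternatives passed it, between -0.49 and -0.73.

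Values were also read for each annotated transcript; differences between transcripts of a gene were not tested. The 10 genes have 38 annotated transcripts, of which 30 passed the count filter and 22 held at least 5% of the TPM of their gene. Cldn11, Ermn and Omg were each read from a single transcript, and Mal-202, Mog-201 and Opalin-201 held 99.96%, 99.1% and 95.7% of the TPM of their genes. Mobp was spread over 6 named transcripts led by Mobp-202 (27.96%) and Mobp-201 (25.5%), and of these Mobp-202 fell by 0.73 ± 0.12 in RalAB cKO (adjusted p = 0.0123), a call that ended in 4 of 15 alternatives. Tspan2-201 held 70.9% of Tspan2 in RalA cKO (59.4% to 80.4%), 63.3% in RalAB cKO (60.9% to 66.7%) and 59.2% in control (55.8% to 63.8%), with overlapping ranges. Plekhb1-203 held 62.2%, 61.0% and 61.5% of Plekhb1 in the same groups, but ranged from 53.4% to 78.2% in control. In RalA cKO 1 of the 30 transcripts passed (0.117% of 31497 transcripts), in RalAB cKO 6 (1.68%), and between the mutants 7 (1.52%). In RalAB cKO Mal-202, Omg-201, Mobp-202, Ermn-201 and Mog-201 were lower and Aspa-205 was higher. The calls of Ermn-201 and Mog-201 there ended in 6 and 8 of 15 alternatives. Opalin-201 did not pass in RalAB cKO (-0.42 ± 0.14), nor Aspa-201 in RalA cKO (0.82 ± 0.20).

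Aspa had 2 minor transcripts with at least 5% of its TPM, Aspa-205 and Aspa-203. Aspa-201, which starts at the first exon chr11:73324255-73324634 (GRCm38), held 83.3% of Aspa TPM in RalA cKO, 78.5% in RalAB cKO and 74.9% in control. Aspa-205 starts upstream of it with the 115-base exon chr11:73326363-73326477 and had 86.2, 70.4, 47.6 and 24.5 estimated counts in RalA cKO mice and 47.6, 9.91, 67.3 and 23.97 in RalAB cKO mice. No control mouse had more than 0.0386. With a floor of 3 counts per control library, the mean of Aspa-205 was 20.7-fold the floor in RalA cKO and 12.2-fold in RalAB cKO. The lowest mice of these groups had 24.5 and 9.91 counts, and the floor does not cover the division of reads between transcripts. With edgeR's quasi-likelihood test Aspa-205 was the RalA cKO transcript that passed (adjusted p = 0.0444), as it did in RalAB cKO (adjusted p = 0.00987). The RalA cKO call ended in 13 of 15 alternatives, and the RalAB cKO call in 2 of 15. Aspa-203, with a 25-base first exon at chr11:73326783-73326807, had 22.8, 0, 23.5 and 0 counts in RalA cKO mice. Its counts were 0, 0, 17.02 and 0 in RalAB cKO mice, against 56.96, 63.97, 39.7 and 64.3 in control mice. Each mutant lay below control without overlap, the mutants overlapped with each other, and the transcript passed neither test against control (adjusted p = 0.778 in RalA cKO and 0.445 in RalAB cKO). Transcripts of a gene share most of their sequence, so counts divided between them are estimates.

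**Figure D4:**
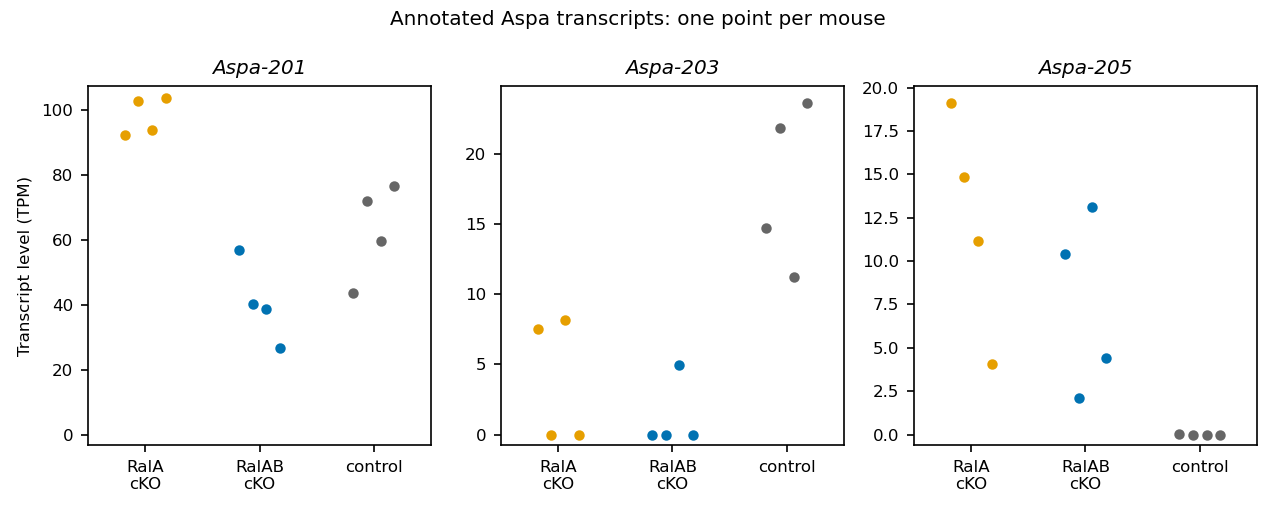
Level (TPM) of 3 annotated Aspa transcripts, with 1 point per mouse in the order RalA cKO, RalAB cKO and control; each panel has its own axis. Aspa-205 lies at 0.00670 TPM or below in control and at 2.11 TPM or above in each mutant, and Aspa-203 lies at 11.2 TPM or above in control and at 8.17 TPM or below in the mutants.

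Likeness of pattern was measured as the root mean square difference of mean-centred log2 CPM over the 12 libraries, among 12372 protein-coding genes. The nearest genes were picked by these same values, so their similar fold changes follow from the choice and are a description. Nearest to Mal were Apod (0.183), Anln (0.196) and Rtkn2 (0.204), whose log2 fold changes against control, first for RalA cKO and then for RalAB cKO, were -0.12 and -1.57 for Apod, -0.16 and -1.50 for Anln and -0.065 and -1.25 for Rtkn2. Nearest to Opalin were Gprc5b (0.137), Gpr62 (0.167) and Ppp1r14a (0.175), each higher than control in RalA cKO and lower in RalAB cKO on the log2 scale, for example by 0.65 and -0.34 for Gprc5b. Nearest to Aspa were Opalin (0.234), Ndp (0.234) and Apln (0.250). Among the 10 genes themselves Cldn11 and Plekhb1 were closest (0.0905), followed by Ermn and Omg (0.192), and Mal and Plekhb1 were farthest apart (0.749).

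Other genes of myelin were called in both directions in RalAB cKO. For this list and those below, the shares of all genes that passed were 2.78% in RalA cKO, 18.4% in RalAB cKO and 11.5% between the mutants. Of 35 tested, 1 rose and 0 fell in RalA cKO, 4 rose and 7 fell in RalAB cKO, and 1 was higher and 12 lower in RalAB cKO than in RalA cKO; the medians were 0.24, -0.0069 and -0.32. Cd82, a tetraspanin, rose in RalA cKO to 244 ± 59.3 CPM, against 106 ± 16.3 CPM in control (1.21 ± 0.26, adjusted p = 0.0286). In RalAB cKO Anln, which encodes an actin-binding scaffold protein, was 21.99 ± 6.68 CPM, against 62.5 ± 14.97 CPM in control (-1.50 ± 0.22, adjusted p = 0.000404). Trf, the gene of the iron carrier transferrin, fell by 0.77 ± 0.16 (adjusted p = 0.00289), as did Evi2a (-0.67 ± 0.15) and Ninj2 (-0.78 ± 0.17); Evi2a, like Omg, lies inside Nf1 on the opposite strand. Between the mutants Hapln2, a link protein of nodes of Ranvier, was lower in RalAB cKO by -0.87 ± 0.11 and Tmem63a, a mechanosensitive ion channel, by -0.87 ± 0.13.

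Enzymes and carriers that handle N-acetylaspartate and acetyl-CoA were the genes nearest to Aspa by function. Of 13 tested, 0 passed in RalA cKO, 5 fell in RalAB cKO and 7 were lower in RalAB cKO than in RalA cKO, with none higher; in RalA cKO 1 was higher and 5 lower at an unadjusted p under 0.05. The RalAB cKO median was -0.62. Acss2, which makes acetyl-CoA from acetate, averaged 111 ± 9.52 CPM in RalAB cKO and 336 ± 57.6 CPM in control (-1.59 ± 0.14, adjusted p = 9.98e-06). Slc13a3, a carrier of N-acetylaspartate, fell by 1.32 ± 0.19, Acly, the ATP citrate lyase, by 0.78 ± 0.12 and Acaca, the acetyl-CoA carboxylase, by 0.62 ± 0.10. In RalA cKO Acly differed by -0.30 ± 0.12 (adjusted p = 0.159) and Slc25a1, the citrate carrier, by 0.12 ± 0.15.

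In families related to the 10 genes, calls went in both directions. Of all genes tested, 1.71% rose and 1.07% fell in RalA cKO, and 9.39% rose and 9.02% fell in RalAB cKO. Of 11 MARVEL family genes tested besides Mal, 0 rose and 1 fell in RalA cKO and 2 rose and 2 fell in RalAB cKO. Syngr1, a synaptic vesicle protein, rose by 1.06 ± 0.14 and Sypl fell by 0.65 ± 0.16 in RalAB cKO, while Cmtm6 fell by 0.38 ± 0.094 in RalA cKO. Of 22 tetraspanins besides Tspan2, 2 rose in RalA cKO, and 3 rose and 5 fell in RalAB cKO. Cd63, a tetraspanin of endosomes and lysosomes, rose by 0.99 ± 0.17 in RalA cKO mice and by 1.61 ± 0.17 in RalAB cKO mice, and Tspan5 fell by 0.60 ± 0.11 in RalAB cKO. Cd53 and Cd37, tetraspanins of leukocytes, rose by 2.11 ± 0.31 and 1.90 ± 0.29 in RalAB cKO, beside the higher microglial markers there; the part of microglia in these values was not tested.

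Tight junction genes besides Cldn11 had 0 of 12 pass in RalA cKO (0 higher and 2 lower at an unadjusted p under 0.05) and 1 higher and 1 lower in RalAB cKO. For this and the next 2 lists, 18.4% of all genes passed in RalAB cKO and 2.78% in RalA cKO. Unadjusted, 11.4% of all genes were higher and 11.3% lower in RalA cKO. F11r, a junctional adhesion molecule, rose by 1.56 ± 0.32, and Cldn10, a claudin, fell by 1.04 ± 0.33, both at under 10 CPM on average. The part of other cell types in these values was not tested. Of 10 Nogo receptor ligands and receptors besides Omg, 1 rose in RalA cKO and 3 rose and 1 fell in RalAB cKO. Lingo1, a co-receptor of the Nogo receptor, averaged 7.26 ± 2.62 CPM in RalAB cKO and 20.7 ± 4.74 CPM in control (-1.51 ± 0.26, adjusted p = 0.00112), and Rtn4rl1 and Ngfr rose by 1.87 ± 0.40 and 1.57 ± 0.36. Pirb, an inhibitory receptor of immune cells, was the gene that rose in RalA cKO, where it averaged 2.12 ± 1.29 CPM, against 0.0782 ± 0.0927 CPM in control. Pirb was also among the genes that rose in RalAB cKO, by 3.47 ± 0.85, where it averaged 0.918 ± 0.458 CPM. Among 14 actin partners of the membrane none passed in RalA cKO (2 higher and 0 lower unadjusted), and 2 rose and 1 fell in RalAB cKO. Gsn, the actin-severing protein gelsolin, averaged 2168 ± 296 CPM in RalAB cKO and 4682 ± 921 CPM in control (-1.11 ± 0.16, adjusted p = 0.000206), whereas Rac1 and Cfl1 rose by 0.34 ± 0.10 and 0.38 ± 0.12.

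Of 20 transcription factors of myelin genes 0 passed in RalA cKO (3 higher and 1 lower unadjusted), and 2 rose and 2 fell in RalAB cKO. Of all genes tested 18.4% passed in RalAB cKO, and unadjusted 11.4% were higher and 11.3% lower in RalA cKO. The calls of these factors are therefore given gene by gene and not as a result about the list. Myrf, which myelin gene expression requires, averaged 2545 ± 307 CPM in RalAB cKO and 1922 ± 190.1 CPM in control, and rose by 0.40 ± 0.12 (adjusted p = 0.0257). Tcf7l2 rose by 0.64 ± 0.14, while Sox8 fell by 0.52 ± 0.12 and Nkx2-2 by 0.59 ± 0.17. Between the mutants 3 were higher and 1 lower in RalAB cKO, the lower being Sp7 (-0.93 ± 0.21). Of 20 genes of newly formed oligodendrocytes, 4 fell in RalA cKO, 6 rose and 5 fell in RalAB cKO, and 6 were higher in RalAB cKO than in RalA cKO. Precursor genes had 0 of 20 pass in RalA cKO (1 higher and 8 lower unadjusted) and 11 fall in RalAB cKO. The part of the stage of the sorted cells in the values of the 10 genes was not tested.

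Markers of other cells were measured beside these results. Of 20 microglial genes 19 rose in RalAB cKO and 3 fell in RalA cKO, and all 20 were higher in RalAB cKO than in RalA cKO; they summed to 0.0214% to 0.0387% of counts in RalA cKO, 0.166% to 0.267% in RalAB cKO and 0.0346% to 0.0861% in control. Astrocyte genes summed to 560 to 861 CPM in RalA cKO, 407 to 506 CPM in RalAB cKO and 600.1 to 1107 CPM in control, with 10 of 15 lower in RalAB cKO. Neuronal genes summed to 109 to 166 CPM in RalA cKO, 80.6 to 107 CPM in RalAB cKO and 127 to 260 CPM in control, with 5 of 15 lower in RalAB cKO. Of 8 Schwann cell genes 2 rose in RalAB cKO, of 9 pericyte and fibroblast genes 1 fell, of 5 erythroid genes 1 fell, and none of 10 endothelial or 3 ependymal genes passed; in RalA cKO none of these 5 lists had a call. At an unadjusted p under 0.05, 7 of 10 endothelial, 4 of 9 pericyte and fibroblast, 8 of 15 neuronal and 18 of 20 microglial genes were lower in RalA cKO, with 1 neuronal gene and none of the other 3 lists higher, and the endothelial median was -1.003. Of the Schwann cell genes 3 were higher and 1 lower, of the ependymal genes 1 was lower, and no erythroid gene passed unadjusted. Control mouse 3 alone set the upper control limits: its sums were 260 CPM for neurons, 1107 CPM for astrocytes and 70.4 CPM for endothelium, against at most 159, 665 and 35.04 CPM in the other control mice. Endothelial genes summed to 17.3 to 29.3 CPM in RalA cKO, and the RalA cKO call of Aspa ended without control mouse 3. Their part in the results of the 10 genes was not tested.

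Without control mouse 1 and RalAB cKO mouse 1, alternatives chosen after the data were seen, 6 of the 10 genes were again lower in RalAB cKO than in control, but Opalin (-0.42, adjusted p = 0.0542) left and Aspa (-0.73, adjusted p = 0.00457) joined. Mal was then -1.71, Omg -1.33, Ermn -1.32, Mog -0.54 and Mobp -0.49, and in RalA cKO Opalin (0.70), Aspa (0.74) and Plekhb1 (0.43, adjusted p = 0.0322) were higher. Among all genes, 1693 of 13502 tested were then called in RalA cKO, 1106 higher and 587 lower, against 374 of 13456 in the main fit. More of all genes were called in RalAB cKO as well. The rise of Aspa was thus also called without these libraries, and Mobp between the mutants was not (-0.37, adjusted p = 0.0704).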

How the data were processed

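Each deposited file held 1 library, with estimated counts, TPM and effective lengths for 121843 transcripts. Per the submitters' processing notes, Trimmomatic 0.36, kallisto 0.44 and GRCm38.p6 were used; the role of each, the annotation and the strand setting are not stated there. Per the labels, libraries were made with a stranded mRNA kit from RNA taken up in Trizol. Expected counts and TPM made by the authors were summed per gene with GENCODE vM21 symbols: 121104 transcripts matched, and the other 739 held 0.219% to 0.277% of counts. Deposited estimated counts, rounded, were tested, and deposited TPM values served levels and an alternative.

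In R 4.3.3, edgeR 4.0.16 kept 13456 genes (filterByExpr, minimum count 10, total 15), scaled by TMM and fitted all 12 libraries with 1 mean per genotype (robust quasi-likelihood F test, Benjamini-Hochberg adjustment over all genes, threshold 0.05). The biological coefficient of variation common to all genes was 0.199. Dividing the size of a log2 fold change by the square root of its F gave its standard error, and a 95% interval is 1.96 standard errors each way. Transcripts were fitted in the same way. Levels of a gene across mice are TMM-scaled CPM. Standard errors and p-values rest on the spread between mice of a genotype, as estimated by the fit. Libraries held 10.9 to 15.4 M counts, and a floor of 3 counts covers counting error only. Per the labels each library came from its own mouse, and the fit treated mice as independent. Libraries of a group differed by a chi-square of 9.09 to 39.5 per degree of freedom (genes with at least 20 summed counts), so all 12 were counted. Pairs with control mouse 1 or RalAB cKO mouse 1 gave 19.7 to 39.5, and other pairs of those groups 9.09 to 19.7. In RalA cKO, mice 1 and 3 gave 22.1. In data simulated on the 13456 genes, the fit called 81% of planted 2-fold and 32% of 1.5-fold changes for RalA cKO (5.83% false calls), 77% and 34% for RalAB cKO (4.31%), each against control, and 85% and 41% between the mutants (3.82%).

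The members and lists were chosen with earlier results of these data known. All 10 members are named. Transcripts are named that hold at least 5% of the TPM of their gene; for each list other than cell types up to 4 called genes with the smallest p qualify (with no call, the 2 most abundant), and for likeness the nearest 3 genes to Mal, Opalin and Aspa; Nf1, Rala, Ralb and the markers named for the label check were added by hand (the summed level of the label markers is not reported here). Alternatives were DESeq2 1.42.0 size factors and test, library totals, other count filters, limma 3.58.1 (voom with and without quality weights, and log2(TPM + 1)), mouse number as a block, fits of only the 2 groups in question, summed Y-linked expression as a covariate, length offsets, protein-coding genes only and each library left out; log2(TPM + 0.1) and the removal of 2 libraries together were added after seeing the data.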

Additional observations from a re-analysis of the deposited data

Results flagged for a closer look

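Of 30 groups of 4 mice (10 genes in 3 genotypes), 1 held a mouse that stood apart from the others in its group. Ermn in RalA cKO mouse 3 was 267.6 CPM, against 241.4 to 244.95 CPM in the other 3 RalA cKO mice, so that its gap to the nearest mouse was 0.864 of the range of the group, above the critical value of Dixon's test for 4 samples. Chance flags about 1 in 20 groups.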

How the results depend on the processing

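Mal, Omg, Ermn and Mog in both comparisons of RalAB cKO, Mobp against control, Opalin in RalA cKO and between the mutants, and Aspa between the mutants kept their direction and call in all 27 alternatives; Mal against control ranged from -1.37 to -1.72 and Opalin in RalA cKO from 0.52 to 0.83. The genes called among the 10 were 1 to 3 in RalA cKO, 5 to 7 in RalAB cKO and 6 to 8 between the mutants. In RalA cKO the count was 1 with log2(TPM + 1), log2(TPM + 0.1) and length offsets, where the call of Aspa ended, and 1 to 2 with each library left out.

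Genes called in RalA cKO, 374 in all, were 1083 with the DESeq2 test, 1736 with quality weights, 85 to 947 with each library left out (85 without RalA cKO mouse 4, 176 without RalA cKO mouse 2, 677 without RalAB cKO mouse 1, and 947, 103, 154 and 248 without control mice 1, 2, 3 and 4) and 1693 without control mouse 1 and RalAB cKO mouse 1. In RalAB cKO 2478 were called, 4061 with quality weights, 1605 (without RalAB cKO mouse 4) to 3209 with each library left out and 3962 without both libraries. Between the mutants 1551 became 2560 with quality weights. Library totals alone moved the median log2 fold change of all genes to -0.14 in RalA cKO (176 higher and 250 lower calls, against 230 and 144) and -0.099 in RalAB cKO (1002 and 1419, against 1264 and 1214); on log2(TPM + 1) the medians were -0.18 and -0.12 (126 and 390; 836 and 1401 calls). Member transcripts called were 0 with limma-voom and 0 to 1 with each library left out in RalA cKO, and 3 (without RalAB cKO mouse 4 or control mouse 2 or 4) to 7 in RalAB cKO.

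Mouse numbers were treated as names in the main fit. Same-numbered mice correlated at -0.198 to 0.175, and not every mouse matched best with its own number. For RalA cKO against control the correlations were 0.0624 to 0.175. Whether same-numbered mice shared a litter or a sort was not tested. With mouse number as a replicate block 232 genes were called in RalA cKO, the member transcripts called were 0, 2 and 4 in the 3 comparisons, and the call of Mobp between the mutants ended (-0.43, adjusted p = 0.0629), as it did with no count filter (-0.43, adjusted p = 0.0508).

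Differences that changed sign were uncalled in each setting. Tspan2 in RalA cKO was -0.040 with library totals, -0.050 with quality weights, -0.311 with either TPM pseudocount, -0.157 with length offsets, -0.062 (without control mouse 1) to 0.217 with each library left out and -0.052 without both libraries. Omg in RalA cKO was -0.189 to 0.024 with each library left out, highest without control mouse 4. In RalAB cKO, Cldn11 was -0.022 with library totals, -0.059 with either TPM pseudocount, -0.025 with the Y-linked covariate and -0.017 (without control mouse 3) to 0.145 with each library left out. Plekhb1 was -0.0072 with library totals, -0.058 with either TPM pseudocount, -0.0076 without control mouse 3 and 0.22 without both libraries. The cause of these changes was not tested. The lowest count of any of the 10 genes in a library was 398, and the minor Aspa transcripts rest on far fewer; the effect of depth on the calls was not tested.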
